A study of Mus musculus with 31 samples.

Results

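The genes described here are 8 early response genes outside the AP-1 family of Fos and Jun: Ier2, Ier5, Btg2, Gadd45a, Gadd45b, Gadd45g, Trib1 and Sik1. They were taken by gene symbol from a table of 48795 genes, and all 8 passed the count filter that left 19529 genes tested. The study asked how exposure to deltamethrin during development changes transcription in mouse brain, and total RNA from homogenised brain was sequenced in 31 libraries. By the agent label, 13 libraries were control and 18 were deltamethrin, a pyrethroid insecticide that keeps voltage-gated sodium channels open for longer. The labels used here give only the tissue and the agent, with no strain, genotype, sex, age, dose or time of collection, and they do not say whether each library is a separate animal, so p-values measure the spread between these samples. The members were chosen by their expression values in the comparison of control and deltamethrin, seen in earlier results of these data, so no member is given a p-value for it, and counts of members past a threshold stand only beside the share of all genes.

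Immediate early genes are transcribed within minutes of a stimulus from factors already present in the cell, such as CREB and serum response factor. Neurons use them after synaptic activity, and most cell types use them after growth factors or stress. Fos, Jun and Egr proteins then carry the response forward as transcription factors. The 8 genes here act mostly by other means: their proteins slow division, shorten the life of mRNAs, activate stress kinases, direct protein breakdown or switch off the coactivators of CREB.

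Total counts ran from 17570311 to 38680621 per library, and no pair of libraries agreed within sampling noise (the smallest chi-square per degree of freedom was 6.34 over 465 pairs). The 6 neuronal markers, Snap25 among them, summed to 2134 to 4174 CPM (the usual count scaled to library size) in control libraries and 2697 to 3994 in deltamethrin, against 2.79 to 5.83 CPM for 4 liver markers over both groups. Some features of the libraries touch the results below. Mitochondrial rRNA (mt-Rnr1 with mt-Rnr2) made up between 7.32% and 40.2% of all counts, the highest share being that of control replicate 2. An early gene score, the mean log2 CPM of 12 activity genes that are not among the 8 (Fos, Fosb, Junb, Egr1, Egr2, Egr3, Egr4, Arc, Npas4, Nr4a1, Nr4a3 and Dusp1), ran from 3.29 to 4.75 in 29 libraries. It stood apart at 5.56 in control replicate 10 and 5.71 in deltamethrin replicate 5. Both groups hold 1 of these high libraries, and results that rest on them are given with and without them.

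Ier2 encodes a small nuclear protein induced by growth factors and by depolarisation. Its gene is a single exon at chr8:84661331-84662852 on the minus strand (GENCODE M21, GRCm38). In control it ran from 4.91 CPM through a median of 8.54 to 13.6 CPM, and in deltamethrin from 4.49 through 6.12 to 11.4 CPM. The ranges overlapped widely, with 17 of 18 deltamethrin libraries inside the control range, although 15 of 18 lay below the control median. The log2 fold change of deltamethrin over control was -0.45 ± 0.14 (SE, edgeR), the largest of the 8 in size and a level 1.37-fold higher in control. Leaving out any 1 of the 31 libraries kept it negative, from -0.51 to -0.38. Ier2 was chosen with this contrast in view, so that range is a description and not support.

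Ier5, at chr1:155096361-155099636 on the minus strand, is also a single exon, and its product helps activate the heat shock factor HSF1. It was the most abundant member. Control libraries ran from 29.3 through 43.2 to 77.6 CPM and deltamethrin libraries from 28.8 through 38.8 to 64.4 CPM. The highest value of each group came from the libraries with the high early gene score, and the next highest were 48.9 and 48.0 CPM. Its log2 fold change was -0.15 ± 0.10 (SE), and -0.058 without control replicate 10.

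Btg2 encodes an antiproliferative protein of the BTG/TOB family that binds the CCR4-NOT deadenylase complex and is a known target of p53. Control values ran from 8.47 through 15.7 to 30.1 CPM and deltamethrin values from 8.02 through 12.3 to 33.8 CPM. The top library of all was deltamethrin replicate 5. Without it the highest deltamethrin value was 14.99 CPM, below the control median, and 17 of 18 deltamethrin libraries lay below that median. The log2 fold change was -0.26 ± 0.17 (SE), moving to -0.39 without deltamethrin replicate 5 and to -0.18 without control replicate 10. The 250 bases before the RefSeq start of Btg2 (GRCm38.p6, chr1:134079156-134079405, minus strand) are shown because Btg2 had the highest Pearson's r with the early gene score of the 8 (Trib1 had the highest Spearman's rho). Capitals mark a cyclic AMP response element (CRE, TGACGTCA), the site that CREB binds, and an Egr site (GCGNGGGCG).
Btg2: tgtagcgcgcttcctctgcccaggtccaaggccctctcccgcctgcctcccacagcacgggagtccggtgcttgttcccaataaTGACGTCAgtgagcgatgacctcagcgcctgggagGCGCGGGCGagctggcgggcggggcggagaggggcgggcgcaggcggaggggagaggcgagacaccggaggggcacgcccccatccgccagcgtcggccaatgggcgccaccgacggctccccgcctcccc

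The CRE of Btg2 spans positions -166 to -159, counted from the RefSeq start, which was not found in a GENCODE transcript. On either strand this motif is present in 1.55% of the 32851 promoters of the same length in the RefSeq table, and the Egr site in 4.70%. A match is a description of the letters and not a measured site. RefSeq promoters were found for 5 of the 8 genes (Ier5, Btg2, Gadd45a, Gadd45b and Gadd45g). Other motifs searched on both strands were the CRE core TGACG (which overlaps each full CRE), the CArG box of serum response factor, the AP-1 site TGANTCA and the E-box CACGTG, with TATAAA searched on the forward strand. Ier5 and Gadd45a held none of these 7 motifs in the window.

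The 3 Gadd45 genes encode small acidic proteins that bind and activate MAP3K4, a kinase upstream of p38 and JNK, and that take part in cell cycle arrest and DNA demethylation. Gadd45b is the best known as a gene of neuronal activity. They lie at chr6:67035096-67037457 (Gadd45a, minus strand), chr10:80930073-80932204 (Gadd45b, plus strand) and chr13:51846678-51848468 (Gadd45g, plus strand). The upstream sequences of these paralogs (250 bases each, GRCm38.p6) are set side by side, covering chr6:67037408-67037657 (minus strand), chr10:80929841-80930090 (plus) and chr13:51846425-51846674 (plus). Whether any motif in them bears on how the genes vary was not tested. Capitals mark an E-box and TATAAA in Gadd45b and Gadd45g, and an Egr site on the reverse strand of Gadd45b.
Gadd45a: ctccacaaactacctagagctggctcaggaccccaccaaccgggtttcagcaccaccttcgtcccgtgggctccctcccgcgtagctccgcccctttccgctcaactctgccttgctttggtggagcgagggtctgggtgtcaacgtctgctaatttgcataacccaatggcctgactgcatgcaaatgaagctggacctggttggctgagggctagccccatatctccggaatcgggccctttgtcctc
Gadd45b: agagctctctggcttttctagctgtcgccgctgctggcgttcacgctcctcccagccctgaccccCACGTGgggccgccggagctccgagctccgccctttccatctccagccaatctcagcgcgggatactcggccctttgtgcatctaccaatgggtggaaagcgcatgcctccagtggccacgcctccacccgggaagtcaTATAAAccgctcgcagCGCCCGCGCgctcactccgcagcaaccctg
Gadd45g: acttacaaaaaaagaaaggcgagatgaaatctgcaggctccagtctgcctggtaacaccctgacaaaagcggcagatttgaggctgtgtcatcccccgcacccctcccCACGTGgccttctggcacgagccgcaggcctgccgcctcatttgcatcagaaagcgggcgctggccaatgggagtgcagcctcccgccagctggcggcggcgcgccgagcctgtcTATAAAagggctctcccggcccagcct

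The E-box is present in 6.02% and TATAAA in 7.59% of the promoters in the table, and both are present in Gadd45b and Gadd45g. Gadd45b ran from 7.76 through 10.4 to 29.9 CPM in control and from 5.85 through 9.17 to 21.5 CPM in deltamethrin. Apart from the high library in each group, no control library was above 14.9 CPM and no deltamethrin library above 11.01 CPM. Gadd45g ran from 5.95 through 8.28 to 18.1 CPM in control and from 5.38 through 6.88 to 14.6 CPM in deltamethrin, and its highest values came from the same libraries. Both genes had lower group means in deltamethrin, with log2 fold changes of -0.29 ± 0.17 and -0.27 ± 0.14 (SE). The value for Gadd45b was -0.080 without control replicate 10 and -0.39 without deltamethrin replicate 5. The value for Gadd45g was -0.15 and -0.35 in the same fits.

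Gadd45a was the lowest of the 8 by count (51 to 172 per library) and the least spread within control. Within deltamethrin its SD of log2 CPM (0.279) was above those of Ier5 (0.249) and Trib1 (0.276). The values of Gadd45a ran from 3.60 through 4.24 to 5.67 CPM in control and from 2.80 through 3.91 to 5.21 CPM in deltamethrin, and the ranges overlapped. Neither high library stood out, with deltamethrin replicate 5 ranking 27 of 31 and control replicate 10 ranking 11. The log2 fold change was -0.082 ± 0.092 (SE). Counting error alone gives a coefficient of variation of 8.88% at its mean count of 127, against 13.97% measured within control and 19.1% within deltamethrin. The antisense gene E230016M11Rik overlaps Gadd45a and had 120 to 340 counts. The use of strand in counting is not given in the sources used here, so reads from the overlap cannot be told apart. The other 7 genes have no overlapping gene in the annotation.

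Trib1 encodes a pseudokinase that brings the COP1 ubiquitin ligase to C/EBP transcription factors (chr15:59648350-59657099, plus strand). It ran from 7.54 through 14.4 to 17.1 CPM in control and from 9.18 through 10.97 to 18.98 CPM in deltamethrin. Of the deltamethrin libraries, 15 of 18 lay below the control median, and yet the highest of all 31 was deltamethrin replicate 5. The log2 fold change was -0.19 ± 0.11 (SE). Sik1, the salt-inducible kinase that CREB induces and that phosphorylates the CREB coactivators CRTC1 to CRTC3 and class IIa histone deacetylases, lies at chr17:31844250-31855804 on the minus strand. Its ranges were 8.54 through 14.02 to 17.9 CPM in control and 9.86 through 13.5 to 18.3 CPM in deltamethrin, nearly the same interval. The log2 fold change of Sik1 was 0.0086 ± 0.096 (SE), and its sign changed in 8 of the 31 fits that left out a library.

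**Figure D1:**
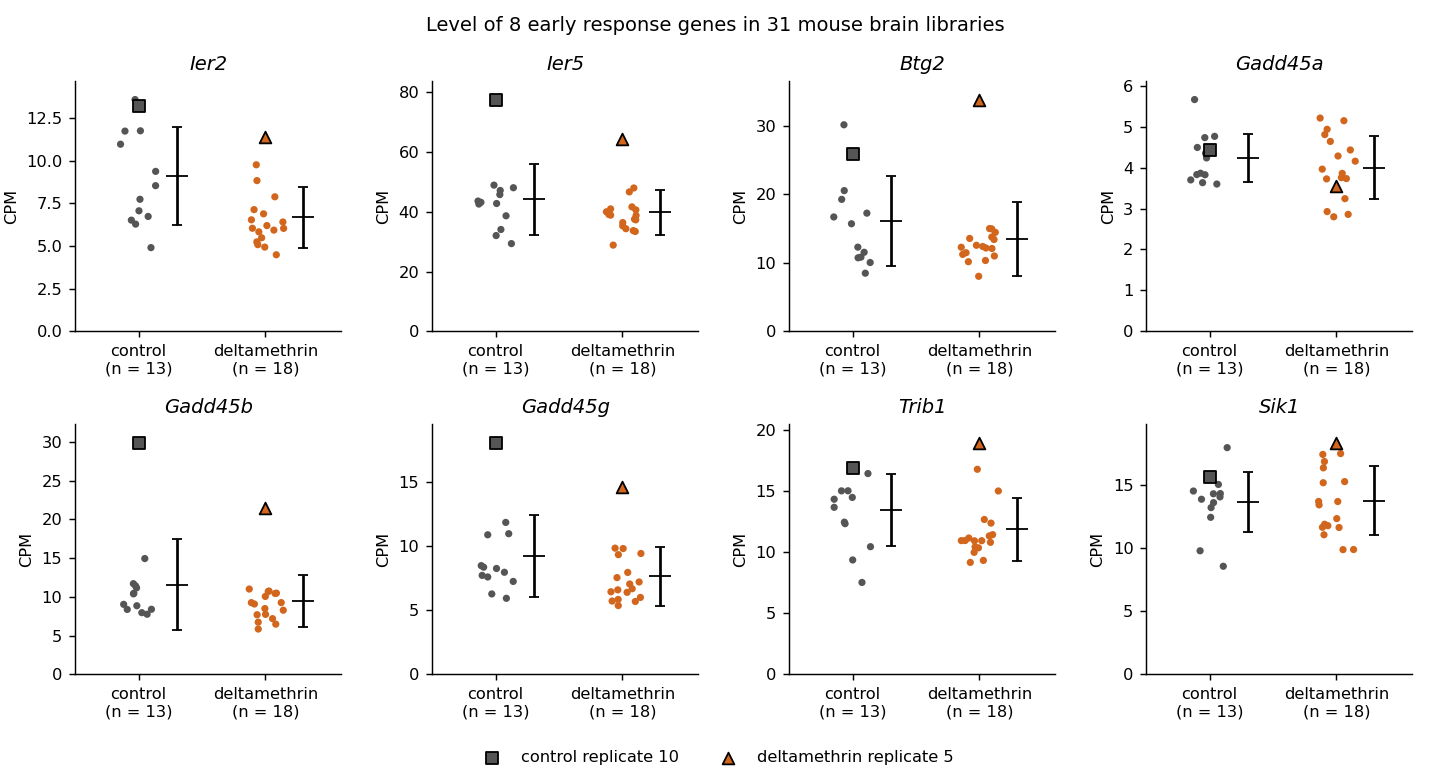
Each panel plots the CPM of a gene (y axis, from 0) in the 13 control and 18 deltamethrin libraries, with the mean and SD beside the points; the square is control replicate 10 and the triangle deltamethrin replicate 5. These 2 libraries top their groups for Ier5, Gadd45b and Gadd45g, and neither does for Gadd45a.

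Per kilobase of exon, which allows levels to be compared between genes, Ier5 led with 12.7 ± 2.96 CPM per kb (SD, n = 31). It was above the next gene in 31 of 31 libraries. Gadd45g (7.09 ± 2.36), Gadd45b (6.52 ± 2.90), Btg2 (5.31 ± 2.16) and Ier2 (5.06 ± 1.69 CPM per kb) formed a middle group, in which neighbours in the order differed by less than 1 SD of their within-library difference. Sik1 (2.67 ± 0.494), Gadd45a (2.33 ± 0.395) and Trib1 (2.01 ± 0.449 CPM per kb) were lowest. Ier2 exceeded Sik1 in 31 of 31 libraries, and the neighbours within the lowest group again differed by less than 1 SD.

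Set side by side, 7 of the 8 genes had a lower fitted level in deltamethrin, where 49.5% of all tested genes were lower. The median log2 fold change was -0.22 over the 8 and 0.0014 over all tested genes. By edgeR's quasi-likelihood test 0 of the 8 passed an adjusted p of 0.05, as did 0% of all genes, and DESeq2 and limma voom also gave 0 genes in all. At an unadjusted p under 0.05, 1 of the 8 passed (Ier2), where 4.37% of all genes did. The contrast was in view when the members were chosen, so nothing is read from these counts. They also turned on a few libraries. Without deltamethrin replicate 5 the count was 6 of 8 (all but Gadd45a and Sik1), with 5.67% of all genes passing. Without control replicate 10 it was 1 of 8, with 2.68% passing and a median of -0.12. Leaving out both of them gave 4 of 8 (Ier2, Btg2, Gadd45g and Trib1), with 3.39% passing and a median of -0.19.

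The early gene score averaged 4.16 ± 0.64 over the 13 control libraries and 3.87 ± 0.53 over the 18 of deltamethrin (SD). With the score as a covariate the median of the 8 moved from -0.22 to -0.052, and Ier2 had the most negative value at -0.29. The fold changes of Ier5 and Btg2 became -0.015 and -0.026, and Gadd45a, at -0.093, did not move toward 0. The score comes from the same libraries and followed the mean of the 8 (r = 0.905 after removal of group means). A smaller contrast is therefore built into this fit, and nothing is read from it. Markers of some brain parts and cell types also lay on 1 side. All 6 choroid plexus markers were lower in deltamethrin (summed level 265 to 1281 CPM in control and 246 to 721 in deltamethrin), as were 5 of 5 blood markers (492 to 1668 and 380 to 1241 CPM) and 6 of 6 striatal markers (428 to 841 and 336 to 881 CPM). The 6 cerebellar markers were all higher (59.5 to 432 and 105 to 529 CPM), as were 6 of 6 astrocyte markers (1393 to 2576 and 1344 to 4366 CPM), and none of the listed markers was at 0 in all libraries. By edgeR's test, 2 of 6 choroid plexus markers had an unadjusted p under 0.05, as had 4.37% of all genes. The blood, striatal, cerebellar, astrocyte, neuronal and oligodendrocyte markers gave 0. Microglia gave 1 of 6 (lower in deltamethrin), and endothelium and progenitors with immature neurons gave 1 of 6 each (higher). Of 2 muscle markers past the count filter, 1 was called (lower). Markers went both ways for neurons (2 lower, 4 higher), oligodendrocytes (4 and 2), microglia (3 and 3), endothelium (1 and 5) and progenitors with immature neurons (1 and 5). The part of these markers in the result was not tested. In bulk RNA, fewer cells of a type and less RNA per cell cannot be told apart.

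**Figure D2:**
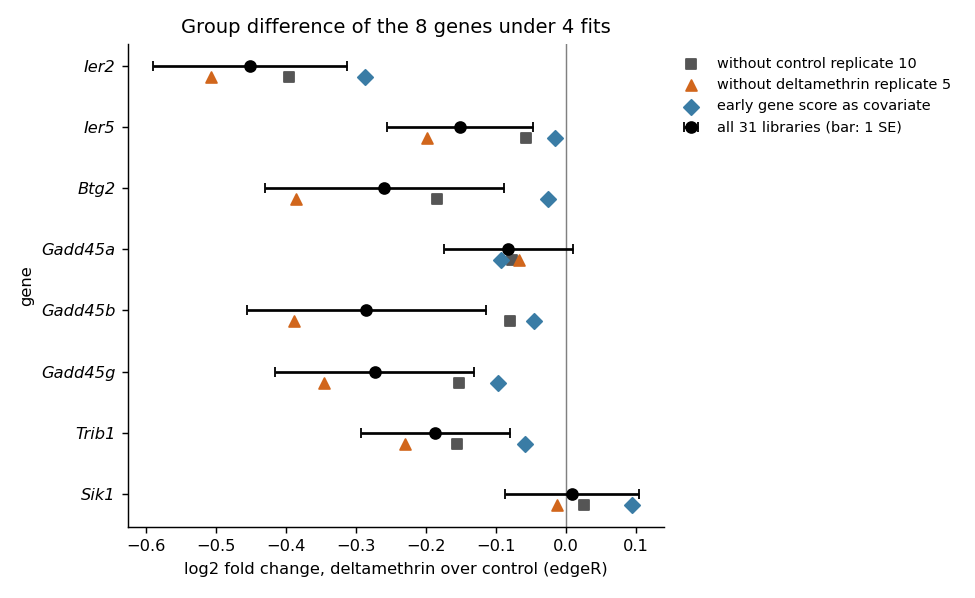
The x axis is the log2 fold change of deltamethrin over control from edgeR for each gene (y axis); black points with bars of 1 SE use all 31 libraries and the other symbols are refits. Gadd45b moves from -0.39 without deltamethrin replicate 5 to -0.080 without control replicate 10, while Ier2 stays between -0.51 and -0.29 in the fits shown.

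A separate question, which does not use the group contrast, is how the 8 genes varied among libraries of the same group. The members and the genes of the early gene score were still chosen with earlier results of these data known. The p-values of the correlations below are therefore not those of genes picked without these data. The spread differed between members. The biological coefficient of variation, edgeR's estimate of variation beyond counting error, was 32.3% for Btg2, 32.2% for Gadd45b, 26.8% for Gadd45g and 26.1% for Ier2. It was 20.1% for each of Ier5 and Trib1, 18.1% for Sik1 and 15.9% for Gadd45a, beside a median of 18.3% over all tested genes. Among genes within 0.25 log2 units of the same mean CPM, Btg2 stood at percentile 97.6 and Gadd45b at 97.8, while Gadd45a stood at 35.1.

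Group means were then removed from log2 CPM and the genes were correlated in pairs over the 31 libraries, with permutation within groups and Benjamini-Hochberg adjustment over the 28 pairs. Of these, 17 were positive and 1 negative at an adjusted permutation p under 0.05, and 16 passed with Spearman's rho. The share of pairs among other tested genes that would pass was not measured. These counts of pairs, and those given further below, are therefore not read as particular to the members. The tightest pair was Gadd45b and Gadd45g (r = 0.827, rho = 0.666, adjusted permutation p = 4.67e-05 and 0.000373). It held within control (r = 0.858) and within deltamethrin (r = 0.798), and without the 2 farthest libraries r was 0.634. Btg2 and Gadd45b followed (r = 0.826, rho = 0.771, adjusted permutation p = 4.67e-05 and 9.33e-05, r = 0.759 without the 2 farthest), then Ier2 with Btg2 (r = 0.805, rho = 0.785, same adjusted p-values, 0.723 without the 2 farthest) and Ier2 with Gadd45g (r = 0.797, rho = 0.696, adjusted permutation p = 4.67e-05 and 0.000224, 0.736 without the 2 farthest). The raw permutation p behind each 4.67e-05 was 1e-05, the smallest that 100000 resamples give.

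Trib1 and Sik1 also varied together (r = 0.739, rho = 0.706, adjusted permutation p = 4.67e-05 and 9.33e-05), with r = 0.762 within control, 0.730 within deltamethrin and 0.670 without the 2 farthest libraries. The pair Sik1 and Gadd45b did not pass (r = 0.106, rho = -0.058, adjusted permutation p = 0.590 and 0.784), but it did once the mitochondrial rRNA share was regressed out of both genes (r = 0.402, adjusted permutation p = 0.0236). For Gadd45a r with the other 7 ran from -0.43 to 0.26, and its only adjusted permutation p under 0.05 for r was with Sik1 (r = -0.428, rho = -0.443, adjusted permutation p = 0.0305 and 0.0308). That relation had r = -0.080 within control and -0.600 within deltamethrin, a difference that was not tested. It did not pass without the 2 farthest libraries (r = -0.336, adjusted permutation p = 0.142), and r was 0.094 without scaling factors (adjusted permutation p = 0.613). With RLE factors or with group means kept it passed (r = -0.440 and -0.424, adjusted permutation p = 0.0274 and 0.0294). Without the 2 high libraries it passed narrowly (r = -0.431, adjusted permutation p = 0.0486). With its paralogs Gadd45a had r = 0.256 and rho = 0.422 (Gadd45b, adjusted permutation p = 0.198 and 0.0347) and r = 0.217 and rho = 0.274 (Gadd45g, adjusted permutation p = 0.279 and 0.197). The calls for Gadd45a moved with the setting: without the 2 high libraries its r with Gadd45b was 0.475 (adjusted permutation p = 0.0298). Without scaling factors its r was 0.438 with Ier5 and 0.382 with Gadd45g (adjusted permutation p = 0.0160 and 0.0426). Whether its r values with the paralogs differ from the r of 0.827 between Gadd45b and Gadd45g was not tested.

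Part of the coupling rested on the libraries at the extremes. When the 2 libraries farthest from the median of the first gene of each pair were left out, 10 of the 18 pairs kept an adjusted permutation p under 0.05 and the median r over all 28 went from 0.561 to 0.377. The 10 were Ier2 with Btg2, Gadd45b and Gadd45g, Ier5 with Gadd45g and Trib1, Btg2 with Gadd45b, Gadd45g and Trib1, Gadd45b with Gadd45g, and Trib1 with Sik1. The libraries left out depend on the first gene, and for Btg2 they were deltamethrin replicate 5 and control replicate 3. With the 2 high libraries left out instead, 13 of the 28 pairs passed. Btg2 with Trib1 was not among them (r = 0.436, adjusted permutation p = 0.0815). Nor was Ier5 with Ier2 (r = 0.426, adjusted permutation p = 0.0660) or with Btg2 (r = 0.429, adjusted permutation p = 0.0736). Ier5 still passed with Gadd45b and Gadd45g, at r = 0.429 and 0.445 (adjusted permutation p = 0.0486 and 0.0452). The pair Gadd45b and Trib1, for example, went from r = 0.453 (rho = 0.239, adjusted permutation p = 0.0292 and 0.237) to r = 0.174, so it rests on control replicate 10 and deltamethrin replicate 5.

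**Figure D3:**
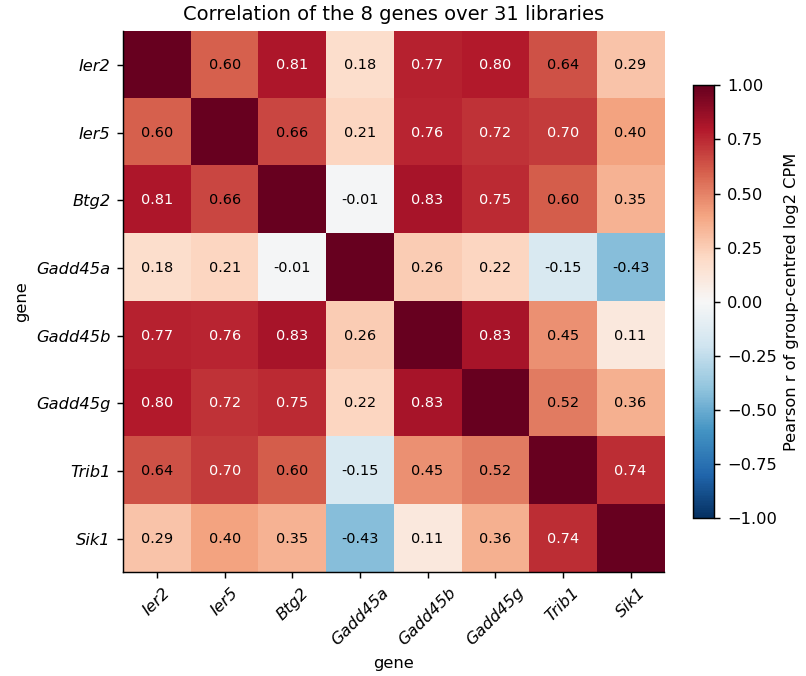
Each cell gives Pearson's r between the genes of its row and column over 31 libraries after removal of group means, from -1 (blue) to 1 (red). Ier2, Ier5, Btg2, Gadd45b and Gadd45g form a red block with r from 0.60 to 0.83. Trib1 has r = 0.74 with Sik1, 0.70 with Ier5, 0.64 with Ier2, 0.60 with Btg2, 0.52 with Gadd45g and 0.45 with Gadd45b. The row of Gadd45a stays between -0.43 and 0.26.

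The early gene score was then used to ask which members move with the Fos, Egr and Nr4a genes from library to library. All but Gadd45a did, at an adjusted permutation p under 0.05 over 8 correlations. The share of all tested genes that follow the score was not measured, so this count is not read as particular to the members. Btg2 had the highest r (r = 0.863, rho = 0.767, adjusted permutation p = 2.67e-05 and 4e-05) and gave r = 0.842 within control, 0.890 within deltamethrin and 0.762 without the 2 high libraries. The r was 0.797 for Ier5, 0.789 for Trib1, 0.783 for Gadd45b, 0.755 for Gadd45g and 0.726 for Ier2 (rho 0.582, 0.809, 0.534, 0.522 and 0.648, adjusted permutation p at most 4e-05 for r and 0.00417 for rho). Without the 2 high libraries these r values were 0.573, 0.746, 0.482, 0.503 and 0.629, and each still passed. Sik1 passed too (r = 0.595, rho = 0.653, adjusted permutation p = 0.000309 and 0.00024, r = 0.565 without them), and no difference between members was tested. For Gadd45a r was -0.071 and rho -0.11 (adjusted permutation p = 0.703 and 0.562), with -0.044 within control and -0.091 within deltamethrin.

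**Figure D4:**
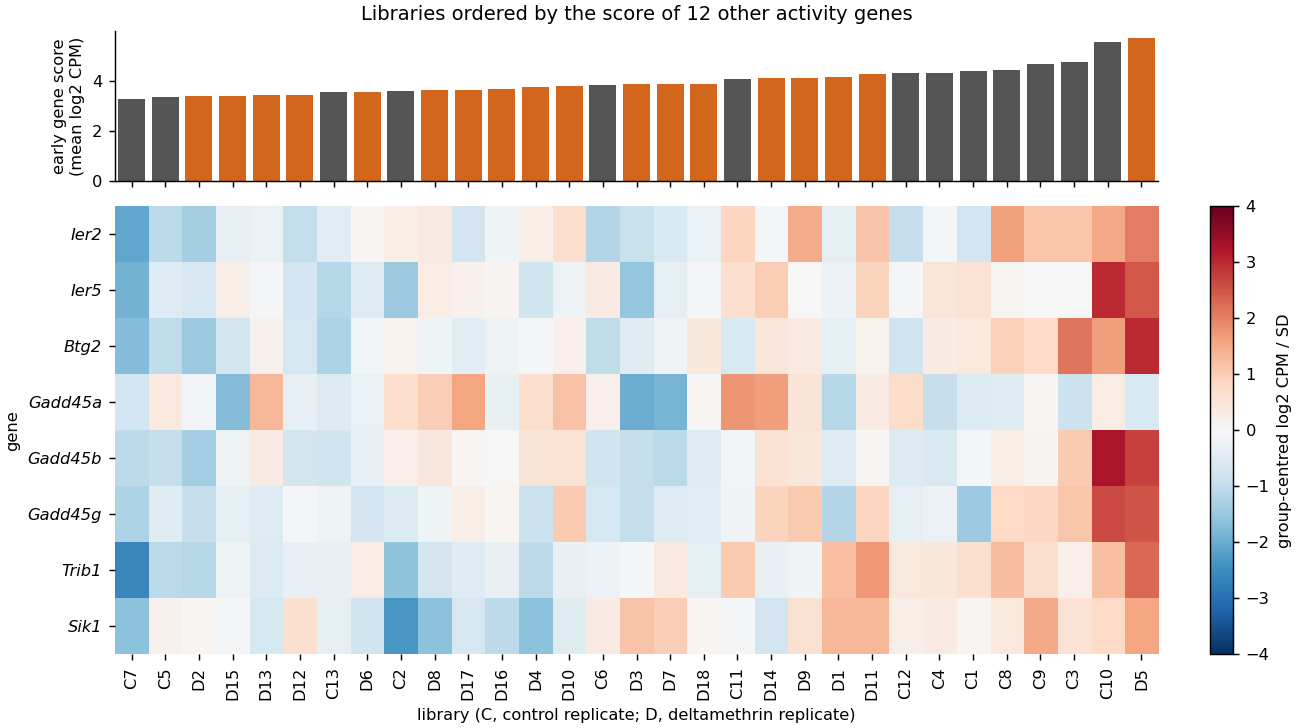
The 31 libraries are ordered along the x axis by the early gene score (bars, mean log2 CPM, grey for control and orange for deltamethrin); the colours below give each gene's group-centred log2 CPM divided by its SD. Control replicate 10 and deltamethrin replicate 5, on the right, are deep red for Ier5, Gadd45b and Gadd45g, control replicate 7 on the left is blue in each row, and the row of Gadd45a does not follow the order.

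The mitochondrial rRNA share split the set in another way. How many of all tested genes follow that share was not measured, so the count of members passing is a description. Sik1 was lower in libraries with a larger share (r = -0.728, rho = -0.673, adjusted permutation p = 8e-05 and 0.00024 over 8 correlations), within control (r = -0.850), within deltamethrin (r = -0.632) and without the 2 farthest libraries, control replicate 2 and deltamethrin replicate 8 (r = -0.606). Trib1 went the same way (r = -0.442, rho = -0.393, adjusted permutation p = 0.0477 and 0.0830) and Gadd45a the opposite way (r = 0.431, rho = 0.436, adjusted permutation p = 0.0477 and 0.0607). Neither passed without the 2 farthest libraries (r = -0.328 and 0.390, adjusted permutation p = 0.247 and 0.143), and scaling bore on these values. Without scaling factors the r of Gadd45a was -0.079, that of Trib1 -0.661 and that of Ier5 -0.469 (adjusted permutation p = 0.771, 0.00096 and 0.0393). With scaling, for the other 5 genes r lay between -0.15 and 0.22 and rho between -0.059 and 0.370, with adjusted permutation p-values of at least 0.497 for r and 0.0877 for rho. After the share was regressed out of both genes, r between Gadd45a and Sik1 was -0.18 (adjusted permutation p = 0.370) and r between Sik1 and Btg2 was 0.521 (adjusted permutation p = 0.00259), against 0.351 before (rho = 0.271, adjusted permutation p = 0.0773 and 0.197). In the same setting Sik1 also passed with Gadd45g (r = 0.483, adjusted permutation p = 0.00870), Ier2 (0.451, p = 0.0120) and Ier5 (0.424, p = 0.0188).

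**Figure D5:**
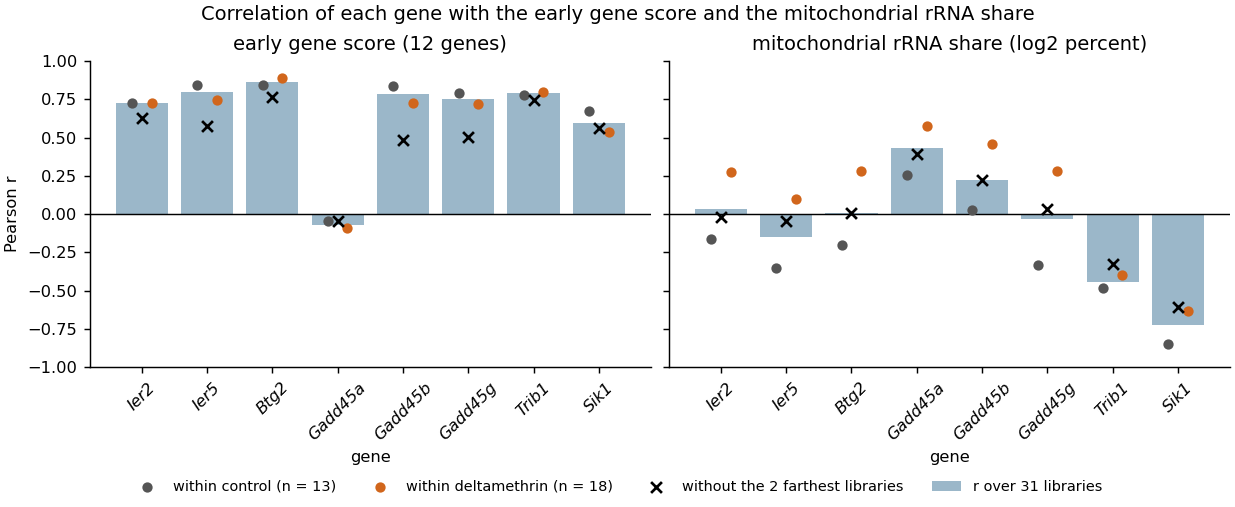
Bars show Pearson's r (y axis) of each gene with the early gene score (left) and with the log2 mitochondrial rRNA share (right) over 31 libraries; points are r within each group and crosses r without the 2 farthest libraries. On the left every bar except that of Gadd45a is at or above 0.595, and on the right Sik1 reaches -0.728.

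Among 15710 other genes with a mean of at least 1 CPM, those most like each member over the 31 libraries (highest r of group-centred log2 CPM) were looked up. For Ier2 they were Dusp1, a MAP kinase phosphatase (r = 0.861), Ddit4, an inhibitor of mTOR signalling (0.826), and Junb (0.789). Btg2 was most like Junb (0.870), Dusp1 (0.869) and Fos (0.850). Gadd45b was most like Sertad1 (0.920), a cofactor of cell cycle transcription, Junb (0.890) and Gm13889 (0.854), and Gadd45g most like Ppp1r15a (0.876), the phosphatase subunit also called GADD34, Pim3 (0.860) and Arl4d (0.856). Ier5 was nearest to the neuronal pentraxin Nptx2 (0.876), Sertad1 (0.852) and Dusp14 (0.846).

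Trib1 was most like Nr4a1, an orphan nuclear receptor of activity (r = 0.871), Dusp4 (0.802) and Arc (0.787). Sik1 was nearest to Egr3 (0.833), Irf2bp2 (0.830) and the glucose transporter gene Slc2a1 (0.826). The genes nearest to Gadd45a were Pttg1, the securin of sister chromatids (0.762), 2810468N07Rik, annotated as an antisense RNA (0.747) and Gpn2, a small GTPase (0.743). The r of Slc2a1 and Irf2bp2 with the mitochondrial rRNA share was -0.83 and -0.81, and that of Pttg1 and 2810468N07Rik 0.61 and 0.67. When the 2 high libraries were left out the r of the nearest gene was 0.815 for Ier2, 0.784 for Btg2, 0.759 for Gadd45b, 0.708 for Ier5 and 0.778 for Gadd45a.

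Transcripts whose products work with those of the 8 genes were counted at an unadjusted p under 0.05, which 4.37% of all genes reached. In lists this short, a count of 0 or 1 is near that share. Of 15 genes of the p53 response, 0 had an unadjusted p under 0.05 in edgeR's test, and the most abundant were Plk2 (145 ± 20.5 CPM over 13 control and 133 ± 17.2 CPM over 18 deltamethrin libraries, SD) and Zmat3 (90.3 ± 17.6 and 98.0 ± 27.4 CPM). The same count was 0 of 11 for the partners of the Gadd45 proteins, with Cdk1 below the filter, 0 of 14 for the SIK and CREB axis, 0 of 10 for IER5 and HSF1 and 0 of 13 for the BTG, TOB and CCR4-NOT genes. Mapk14, the p38 kinase, had 59.1 ± 5.02 CPM against 58.4 ± 5.17 CPM, and Tet3, a DNA demethylation enzyme, 57.4 ± 13.3 and 63.9 ± 13.5 CPM. Crtc1 and Hdac5, both substrates of salt-inducible kinases, had 132 ± 30.6 against 138 ± 33.9 CPM and 232 ± 44.9 against 230.3 ± 19.4 CPM. Hspa8 and Hsph1, which HSF1 drives, had 1080.3 ± 128 against 1109.8 ± 140 CPM and 141 ± 21.9 against 149.7 ± 18.1 CPM. Pabpc1 had 116 ± 18.4 against 126 ± 13.7 CPM and Cnot1, the scaffold of CCR4-NOT, 96.0 ± 13.4 against 97.6 ± 19.9 CPM.

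In the Trib1 and COP1 list 1 of 8 genes had an unadjusted p under 0.05, the C/EBP gene Cebpd, with 4.89 ± 1.252 CPM in control libraries and 3.98 ± 0.948 CPM in those of deltamethrin. Of 15 further early genes, 5 had an unadjusted p under 0.05 and all 5 were lower in deltamethrin, where 2.37% of all genes were, and 0 passed after adjustment over all genes. This list too was chosen with earlier results of these data known. The mean of its genes followed that of the 8 members (r = 0.877 after removal of group means), so the count is not separate evidence. The smallest p-values were those of Ccn1 (also Cyr61), an extracellular matrix signalling protein, with 3.58 ± 1.97 and 2.32 ± 0.878 CPM (log2 fold change -0.64 ± 0.20, SE), and of Ier5l, a paralog of Ier5, with 19.98 ± 3.94 and 16.7 ± 3.06 CPM (-0.26 ± 0.095, SE). The medians of log2 fold change were -0.17 over these 15 genes, -0.29 over the 12 genes of the early gene score and 0.0014 over all tested genes.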

How the data were processed

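Total RNA libraries of mouse brain (13 control, 18 deltamethrin, by agent label) were analysed. The authors deposited raw counts per Ensembl gene. Per the submitters' processing notes, the tools were Trimmomatic, HISAT2, SAMtools and MultiQC and the build GRCm38. The counting tool, annotation and use of strand are not given in the sources used here. The members and gene lists were chosen with earlier results of these data known.

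Genes were kept by filterByExpr (minimum count 10, minimum total 15) in edgeR (version 4.0.16, R 4.3.3), which left 19529 of 48795. With TMM factors and no covariates, groups were compared by the quasi-likelihood F-test with robust=TRUE, adjusted by Benjamini-Hochberg over all tested genes. The SE of a log2 fold change was its absolute value over the square root of the F statistic. CPM uses TMM-scaled library sizes, and log2 CPM a prior count of 2. Level per kilobase divides CPM by the exon union of GENCODE M21, to which 99.3% of gene IDs matched. Correlations used log2 CPM with group means removed and two-sided permutation within groups (100000 resamples). Precision is limited by counts of 51 to 2156 per member and library.

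The genes named were the 8 members, the 3 genes most like each, and from each pathway list up to 2 genes with the smallest unadjusted p under 0.05 or, where none, the 2 most abundant. The early gene score genes were left out of that naming, apart from those most like a member. Alternatives were RLE, upper quartile and no factors, other filters and prior counts, DESeq2 (version 1.42.0), limma voom (limma 3.58.1), robust=FALSE, 3 covariates and leaving out each library. Leaving out both libraries of high early gene score was chosen after seeing the data. The scripts were tested on simulated data.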

Additional observations from a re-analysis of the deposited data

How the results depend on the processing

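The count of genes past an adjusted p of 0.05 was 0 in each of the 12 alternatives and the 31 fits that left out a library, and at a threshold of 0.1 it was 0 with all libraries in edgeR, 1 in DESeq2 and 1 in edgeR without control replicate 5. At an unadjusted p under 0.05 there were 853 genes, against 1948 with no count filter, 1796 when mitochondrial rRNA was a covariate, 537 when the early gene score was, and 526 to 1389 when a library was left out. The median log2 fold change of the 8 members stayed negative, from -0.29 to -0.12 across those fits and from -0.23 to -0.052 across the alternatives. Sik1 changed sign in 2 of 12 alternatives and 8 of 31 fits, and the other 7 members in none. The members were chosen with this contrast in view, so a kept sign is a description only.

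The number of pairs past an adjusted p of 0.05 was 18, and 10 without the 2 farthest libraries. Over all 28 pairs the median r was 0.561, against 0.667 without scaling factors, 0.377 without the 2 farthest libraries and 0.427 without both libraries of high early gene score. For the early gene score the median r was 0.769, and 0.569 in each of those last 2 settings, which here leave out the same 2 libraries. For the mitochondrial rRNA share 3 genes passed, against 1 with group means kept and 1 without the 2 farthest libraries, and without scaling factors the r of Gadd45a was -0.079 and Ier5 also passed (r = -0.469). The cause was not tested. No paired analysis was possible because libraries are numbered by sample order, which pairs nothing.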
